A study of Mus musculus with 2 samples.

Results

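TRIM family genes were taken as the protein-coding RefSeq genes of mouse chromosomes 1 to 19 whose symbol is Trim followed by a digit. The symbol rule gave 67 genes out of 20665 autosomal protein-coding genes, after 1 gene was set aside that is not analysed here. An ATAC-seq peak belonged to a TRIM gene when that gene had the nearest gene end to the peak summit, within 100 kb. By this rule 115 of 77060 peaks in untreated macrophages and 68 of 37725 peaks in R848-treated macrophages were TRIM peaks. The rule itself did not use how strong a peak was or whether it was found after treatment. It was chosen, however, with earlier results of these data known.

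The cells were wild-type mouse bone marrow-derived macrophages, grown out of marrow with the growth factor M-CSF at 20 ng/ml. There was 1 library of untreated cells (0 h) and 1 of cells 2 h into treatment with R848 (100 ng/ml). R848, also called resiquimod, is an imidazoquinoline that mimics viral RNA at Toll-like receptor 7. With 1 library a group there was no replicate check, and a peak found in 1 list alone is a difference between these 2 libraries, with no test. All 10 macrophage marker genes had peaks in both lists (38 untreated and 34 R848 peaks), while the 5 T cell markers had 1 and 0 and the 4 B cell markers had 2 and 3. The other marker sets also had assigned peaks, with 4 and 4 for 5 neutrophil genes, 2 and 7 for 3 dendritic cell genes, 6 and 5 for 4 stromal and endothelial genes, and 5 and 1 for 3 erythroid genes. The part of such cells in the results was not tested.

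TRIM proteins carry a RING domain, one or more B-box domains and a coiled coil, and most act as ubiquitin ligases. Many are induced by interferon, and several attach ubiquitin to the sensors and adaptors that detect viral RNA or cytosolic DNA. In macrophages, Toll-like receptor signals and TRIM proteins meet at the kinases TAK1, TBK1 and IKK, which lead to NF-kB and interferon genes. Other members are chromatin co-regulators, muscle proteins or germ-line proteins.

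Start-site sequences are given first for Trim25 and Trim34a, which had a peak there in the R848 list alone, and for 6 windows with peaks in both lists. The 6 were picked from 16 such windows and include all 5 of these with the interferon motif described below. The both-list windows not printed held no match to it. The Trim30d window, with a match and a peak in the untreated list alone, is also not printed. All sequences come from the RefSeq promoter table (GRCm38.p6, the assembly that mm10 names), which held windows for 52 of the 67 genes. Each line runs 5′ to 3′ along the gene's own strand, from 250 bases before the start site to 30 bases into the transcript. Motifs and peaks were counted in the full windows of 300 bases, which reach 50 bases into the transcript. Capitals mark matches, on either strand, to the interferon-stimulated response element (ISRE, searched as GAAA, any 2 bases and GAAA again) and to a PU.1 site (GAGGAAGT). The AP-1 motif (TGANTCA) and an NF-kB motif were also searched in these windows and had no match. A match is a description of the letters and not a bound site.
Trim25: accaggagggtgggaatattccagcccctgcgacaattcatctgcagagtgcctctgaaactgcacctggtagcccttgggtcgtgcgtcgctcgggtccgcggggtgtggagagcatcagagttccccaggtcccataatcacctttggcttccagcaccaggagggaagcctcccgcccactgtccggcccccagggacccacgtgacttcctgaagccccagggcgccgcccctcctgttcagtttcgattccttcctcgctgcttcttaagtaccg
Trim34a: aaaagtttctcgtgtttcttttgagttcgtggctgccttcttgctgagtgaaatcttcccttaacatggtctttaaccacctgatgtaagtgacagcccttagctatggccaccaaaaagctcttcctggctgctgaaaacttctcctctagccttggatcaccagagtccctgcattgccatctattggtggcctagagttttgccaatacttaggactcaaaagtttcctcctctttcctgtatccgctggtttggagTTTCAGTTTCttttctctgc
Trim5: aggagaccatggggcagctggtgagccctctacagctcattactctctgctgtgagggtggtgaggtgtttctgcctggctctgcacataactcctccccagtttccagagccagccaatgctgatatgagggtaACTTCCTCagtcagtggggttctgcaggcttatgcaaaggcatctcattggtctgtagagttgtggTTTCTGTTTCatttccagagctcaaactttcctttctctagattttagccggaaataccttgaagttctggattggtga
Trim12a: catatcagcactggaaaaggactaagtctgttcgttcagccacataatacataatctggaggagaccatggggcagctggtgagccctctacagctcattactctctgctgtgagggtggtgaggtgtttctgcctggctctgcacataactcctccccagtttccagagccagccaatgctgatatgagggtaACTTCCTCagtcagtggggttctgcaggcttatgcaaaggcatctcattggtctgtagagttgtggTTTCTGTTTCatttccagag
Trim12c: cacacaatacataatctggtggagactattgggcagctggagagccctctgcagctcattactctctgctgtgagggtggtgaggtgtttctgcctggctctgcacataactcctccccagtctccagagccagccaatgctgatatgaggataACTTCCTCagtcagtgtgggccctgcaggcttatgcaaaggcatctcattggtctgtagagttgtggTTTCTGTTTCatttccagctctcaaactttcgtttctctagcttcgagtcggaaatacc
Trim21: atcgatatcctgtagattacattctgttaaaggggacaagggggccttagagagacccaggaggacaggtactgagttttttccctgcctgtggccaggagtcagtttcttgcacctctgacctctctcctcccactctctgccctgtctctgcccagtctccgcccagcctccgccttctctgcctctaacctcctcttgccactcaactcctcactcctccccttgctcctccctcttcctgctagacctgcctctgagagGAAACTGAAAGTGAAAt
Trim26: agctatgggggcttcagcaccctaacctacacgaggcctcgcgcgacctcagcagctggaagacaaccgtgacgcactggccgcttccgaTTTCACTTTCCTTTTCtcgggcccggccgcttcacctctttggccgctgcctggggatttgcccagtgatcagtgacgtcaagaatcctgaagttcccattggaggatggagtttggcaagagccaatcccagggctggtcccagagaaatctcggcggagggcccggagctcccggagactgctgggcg
Trim24: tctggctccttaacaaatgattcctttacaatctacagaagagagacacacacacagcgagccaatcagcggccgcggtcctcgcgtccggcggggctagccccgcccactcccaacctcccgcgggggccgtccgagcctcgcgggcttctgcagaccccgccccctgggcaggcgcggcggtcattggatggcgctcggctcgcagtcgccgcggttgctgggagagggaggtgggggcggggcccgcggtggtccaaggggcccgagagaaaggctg

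The printed parts of the windows spanned chr11:88999153-88999432 for Trim25 (plus strand), chr7:104244207-104244486 for Trim34a (plus strand), chr7:104288077-104288356 for Trim5 (minus strand), chr7:104315466-104315745 for Trim12a (minus strand), chr7:104353320-104353599 for Trim12c (minus strand), chr7:102565453-102565732 for Trim21 (minus strand), chr17:36836896-36837175 for Trim26 (plus strand) and chr6:37870561-37870840 for Trim24 (plus strand). On the strand of the gene, the ISRE match of Trim34a began 10 bases after the start site, and the 2 overlapping matches of Trim21 began 13 and 19 bases after it. In Trim26, a pair of overlapping matches began at positions -160 and -154 from the start site. The Trim5, Trim12a and Trim12c windows each held an ISRE match and a PU.1 match. These genes are copies of one another. Where the full windows of 300 bases aligned, Trim5 and Trim12a were identical over 241 bases. Trim5 and Trim12c matched at 263 of 280 bases (93.9%), and Trim12a and Trim12c at 247 of 260 (95%). How reads that fit several copies had been placed is not given in the sources used here, so tags at these copies may be shared between them.

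Across the family the ISRE match was found in 8 of 65 promoter windows (12.3%), against 3.38% of 20085 autosomal windows. Of these 8 windows, 5 held a peak in both lists, 1 in the R848 list alone and 1 in the untreated list alone, and 1 held none. The 8 genes were Trim2, Trim5, Trim12a, Trim12c, Trim21, Trim26, Trim30d and Trim34a, of which 6 lie on chromosome 7 and 5 belong to groups of near-identical copies. Outside those groups the match stood in 3 of 54 windows (5.56%). The PU.1 match was found in 5 of 65 windows (7.69%) against 3.18% of all windows, AP-1 in 9 (13.8%) against 7.06%, and NF-kB in 5 (7.69%) against 9.42%. The 5 PU.1 windows were those of Trim2, Trim24, Trim5, Trim12a and Trim12c, and the last 3 are near-identical copies.

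Peaks were assigned to 51 of the 67 genes, with peaks in both lists for 33, in the untreated list alone for 13 and in the R848 list alone for 5. The 5 were Trim17, Trim25, Trim38, Trim47 and Trim50; the Trim17 peak overlapped an untreated peak that was nearer to another gene. Of the members, 46 (68.7%) had an untreated peak, against 69.2% of all autosomal genes, and 38 (56.7%) had an R848 peak, against 64.7%. Trim10, Trim11, Trim15, Trim23, Trim30b, Trim30c, Trim31, Trim34b, Trim46, Trim54, Trim58, Trim61, Trim63, Trim65, Trim67 and Trim80 had no assigned peak. Trim60 and Trim61 share a gene end in the annotation, and peaks beside it were counted for Trim60.

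**Figure D1:**
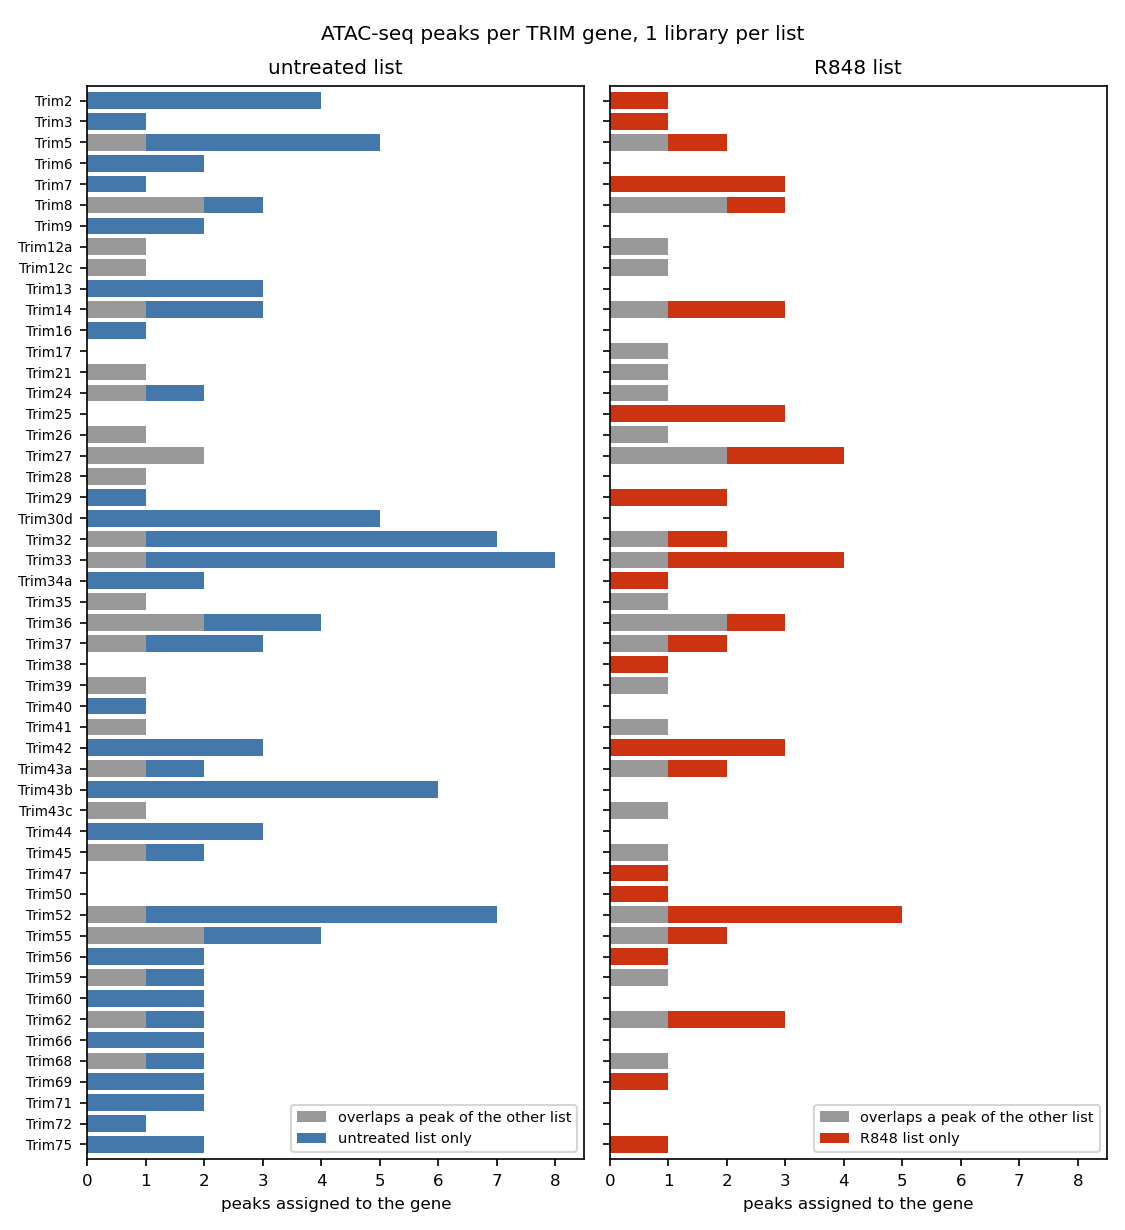
Number of peaks (horizontal axis) assigned to each TRIM gene with at least 1 peak, in the untreated list (left) and the R848 list (right), 1 library each. Grey marks peaks that overlap a peak of the other list by at least 1 bp and colour marks peaks of that list alone; Trim33 had the most untreated peaks (8) and Trim52 the most R848 peaks (5).

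A peak with no overlapping peak in the other list is called untreated-only or R848-only here. Of the TRIM R848 peaks, 40 of 68 were R848-only (58.8%, 95% Wilson interval 47.0 to 69.7), against 67.2% of all assigned autosomal R848 peaks. Of the TRIM untreated peaks, 86 of 115 were untreated-only (74.8%, 66.1 to 81.8), against 78.3% of all. Both intervals hold the value of all genes. An R848-only peak was assigned to 25 of 67 members (37.3%, 26.7 to 49.3), against 48.7% of all autosomal genes, and an untreated-only peak to 36 (53.7%, 41.9 to 65.1), against 56.1%. Per gene, the family held 0.597 R848-only peaks and the autosomal genes 0.921, and the untreated-only peaks came to 1.28 and 1.64. With the untreated list shortened to the length of the R848 list, by −log10 p, 70.6% of TRIM R848 peaks were R848-only (58.9 to 80.1), against 74.9% of all, and 57.4% of TRIM untreated peaks (27 of 47) were untreated-only, against 67.8% of all.

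Close to genes, 21 of 68 TRIM R848 peaks lay within 1 kb of a gene end (30.9%, 21.2 to 42.6), against 27.6% of all assigned R848 peaks. In the untreated list 23 of 115 did (20.0%, 13.7 to 28.2), against 14.1%. Counted by gene, 21 members (31.3%) had an R848 peak within 1 kb, against 35.1% of all genes, and 23 (34.3%) an untreated one, against 27.5%. Most R848 peaks near gene ends were shared ones, in the TRIM family and over all genes. Of the 21 TRIM R848 peaks within 1 kb, 17 were also in the untreated list. Over all genes, at least 4604 of the 7826 R848 peaks within 1 kb were shared. R848-only peaks within 1 kb were found at 4 of 67 members (5.97%, 2.35 to 14.4), against 14.7% of all autosomal genes. Untreated-only peaks within 1 kb were found at 6 members (8.96%, 4.17 to 18.2), against 6.61%. R848-only TRIM peaks farther than 1 kb numbered 36, and those of all genes were not counted.

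The 4 members with an R848-only peak at a gene end were Trim25, Trim34a, Trim3 and Trim38. Peak strength is given as tags, the number of reads or fragments that the peak caller piled up at the summit, recovered from the deposited fold and p columns. Which of the 2 was counted depends on settings that are not given in the sources used here. Fewer cells with an open site and fewer insertions per cell cannot be told apart in these bulk libraries. The commonest background was 0.968 tags for untreated cells and 1.36 for R848, the weakest peaks called at it held 4 and 5 tags, and the median peaks 7 and 8.

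Trim25 encodes the ubiquitin ligase that activates the RNA sensor RIG-I. It had no untreated peak and 3 R848 peaks on chromosome 11, none of which overlapped an untreated peak. The first, at 88999170 to 88999442, lay 119 bp from the gene start with 8 tags (95% Poisson interval 3.45 to 15.8) and a fold enrichment over the local background of 3.81. The second, at 89006448 to 89006730 within the gene, held 10 tags, and the third, at 89024162 to 89024899, lay 4025 bp beyond the gene with 9 tags. These 3 peaks lay at or a little above the median tags of the R848 list. None of them reached a −log10 q of 5.

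Trim34a belongs to the interferon-inducible cluster of chromosome 7 and is one of the near-identical copies there, so its peaks are uncertain in the same way as those of Trim5 and Trim12a. Its R848-only peak, from 104244197 to 104244798, covered the start site and the ISRE match shown above, with 11 tags and a fold of 5.09. The 2 untreated peaks of Trim34a lay 7030 and 8011 bp from the nearest gene end, inside the gene, with 5 tags each. Trim34a thus had peaks in both lists but at different places, and the R848 peak did not reach a −log10 q of 5.

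Trim3 encodes an NHL-repeat protein best known from neurons. Its R848 peak (chromosome 7, 105633425 to 105633793, 11 tags) lay 43 bp from the gene end, and its untreated peak (105633166 to 105633365, 6 tags) lay 59 bp away from the R848 peak. When a gap of up to 500 bp counted as shared, Trim3 had no peak of 1 list alone. The R848 summit was also 584 bp from an end of Arfip2. Trim38 encodes a ligase that restrains TAK1 signalling, and its R848-only peak (chromosome 13, 23779287 to 23779629) held 6 tags with a fold of 2.97, below the median of the list.

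Untreated-only peaks within 1 kb of a gene end lay at Trim3, Trim16, Trim30d, Trim44, Trim66 and Trim69. The strongest was at Trim30d, a member of the near-identical Trim30 copies and therefore uncertain. Its peak, from 104507733 to 104508001 on chromosome 7, covered the start site with 10 tags and a fold of 5.59. Trim30d had 4 further untreated peaks, with 4 to 8 tags, and none in the R848 list. The Trim44 peak held 5 tags and lay 237 bp from the gene end, and Trim44, which encodes a member without a RING domain, had no R848 peak either.

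Over the promoter windows, 2 of the 65 TRIM windows held an R848 peak alone (3.08%, Wilson interval 0.848 to 10.5), against 12.2% of all autosomal windows. An untreated peak alone was found in 4 (6.15%, 2.42 to 14.8), against 2.44%, and peaks of both lists in 16 (24.6%, 15.8 to 36.3), against 23.4%. These counts moved with the length of the lists. With the untreated list shortened to the length of the R848 list, 8 TRIM windows held an R848 peak alone (12.3%, 6.37 to 22.5), against 16.4% of all windows, 1 held an untreated peak alone, against 1.27%, and 10 held both, against 19.3%. The 8 windows with an R848 peak alone then belonged to 7 genes, Trim5, Trim12c, Trim25, Trim34a, Trim39, Trim59 and Trim68. At a −log10 q of at least 5 in both lists, 5 held an R848 peak alone (7.69%), against 12.3%. Of the windows with an untreated peak alone in the full lists, that of Trim28, which encodes the KAP1 co-repressor of retroelements, held an untreated peak of 6 tags, and the R848 peak that overlaps this untreated peak began 158 bp after the start site, outside the window.

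**Figure D2:**
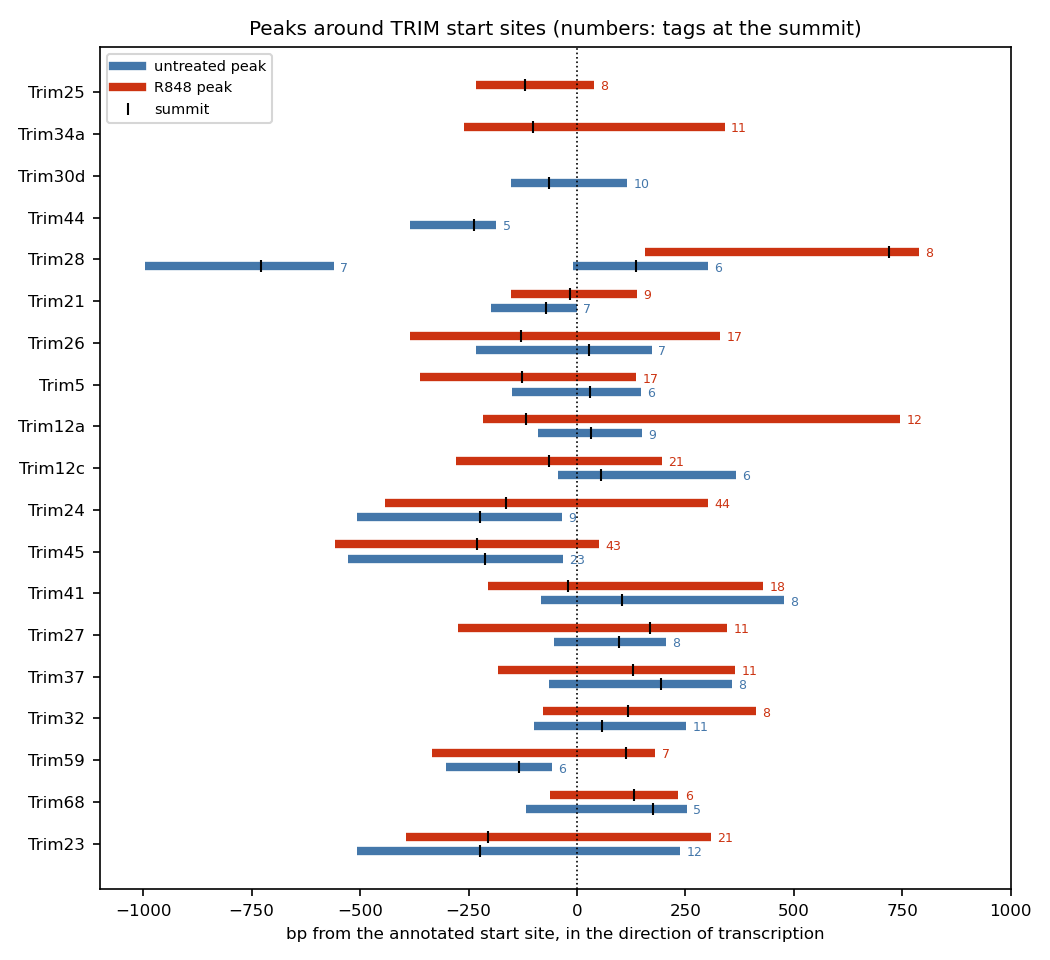
Peaks of the untreated (blue) and R848 (red) lists around the annotated start sites of TRIM genes with a peak over a promoter window, in bp along the direction of transcription; Trim39 is left out because its annotated start sites differ. Bars span the called peak, black ticks mark summits and numbers give tags at the summit: Trim25 and Trim34a have an R848 peak alone, and at Trim24 the R848 peak holds 44 tags against 9.

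TRIM peaks present in both lists held more tags than those of 1 list alone. The 28 shared TRIM R848 peaks had a median of 11 tags and the 40 R848-only peaks a median of 8, and in the untreated list the medians were 8 and 6. Over all autosomal genes, shared R848 peaks also held more, with a median of 12 tags against 8 for all assigned R848 peaks. Medians for all peaks of 1 list alone were not counted. At the shared TRIM peaks the strongest overlapping untreated peak had a median of 8 tags. The R848 library held more tags at 23 of the 28 (82.1%) and fewer at 5, with a median ratio of 1.38. Over all 9267 shared autosomal peaks it held more at 6696 (72.3%), the medians were 9 and 12 tags and the ratio was 1.5. Within 1 kb of gene ends the ratio was 1.38 at 17 TRIM peaks and 1.80 at 4604 peaks of all genes. Farther away it was 1.44 at 11 TRIM peaks and 1.14 at 4663 of all genes. The R848 library was higher at 88.2% of TRIM peaks within 1 kb, against 91.0% of all. Beyond 1 kb these shares were 72.7% and 53.8%. Depth had not been equalised between the libraries, so a ratio above 1 is not itself a gain.

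Trim24, which encodes the TIF1-alpha co-regulator of nuclear receptors, had the TRIM peak of highest fold in the R848 list, while a peak near Trim55 held more tags. It lay over the start site on chromosome 6 (37870369 to 37871114) with a fold of 12.4. The untreated library held 9 tags there (Poisson interval 4.12 to 17.1) and the R848 library 44 (32.0 to 59.1). The intervals, which cover counting error only, did not overlap. The ratio of 4.89 stood at percentile 99.7 of all shared autosomal peaks, as a description of these libraries.

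Trim12c and Trim5, paralogs of the retroviral capsid restriction factor TRIM5, followed among peaks at gene ends. At Trim12c the untreated library held 6 tags and the R848 library 21 (chromosome 7, 104353153 to 104353627). At Trim5 the values were 6 and 17 (104287969 to 104288468), and at Trim12a 9 and 12 (104314750 to 104315712). The untreated peaks of these 3 copies held 6 to 9 tags, around the median of that list. The R848 values ran from 12 to 21, with Poisson intervals that overlapped (6.20 to 21.0 at Trim12a and 13.0 to 32.1 at Trim12c). At Trim26, a ligase reported to act on nuclear IRF3, the values were 7 and 17 (chromosome 17, 36836760 to 36837477), and at Trim41 they were 8 and 18.

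Some strong shared peaks lay farther than 1 kb from the outer gene ends. The Trim45 peak (chromosome 3, 100921936 to 100922544), 1060 bp inside the gene from its nearer end, covered the start site listed in the promoter table. It was the strongest TRIM peak of the untreated list, with 23 tags and a fold of 8.0, and held 43 tags after R848. A peak 15431 bp from Trim55, which encodes a muscle protein of the sarcomere, held 16 tags in untreated cells and 47 after R848 (chromosome 3, 19628197 to 19629106). Trim55 also had 2 untreated-only peaks of 12 and 10 tags inside the gene. Near Trim43c, an early-embryo member with near-identical copies, a shared peak held 10 and 22 tags.

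At 5 shared peaks the R848 library held fewer tags. A peak 27865 bp from Trim52 held 13 untreated and 7 R848 tags, and one inside Trim14 held 10 and 6. The peak 547 bp before the start of Trim62 held 9 and 6, the Trim32 start-site peak 11 and 8, and a peak 1608 bp from Trim8 held 8 and 7. These are small counts, and the Poisson intervals of each pair overlapped.

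**Figure D3:**
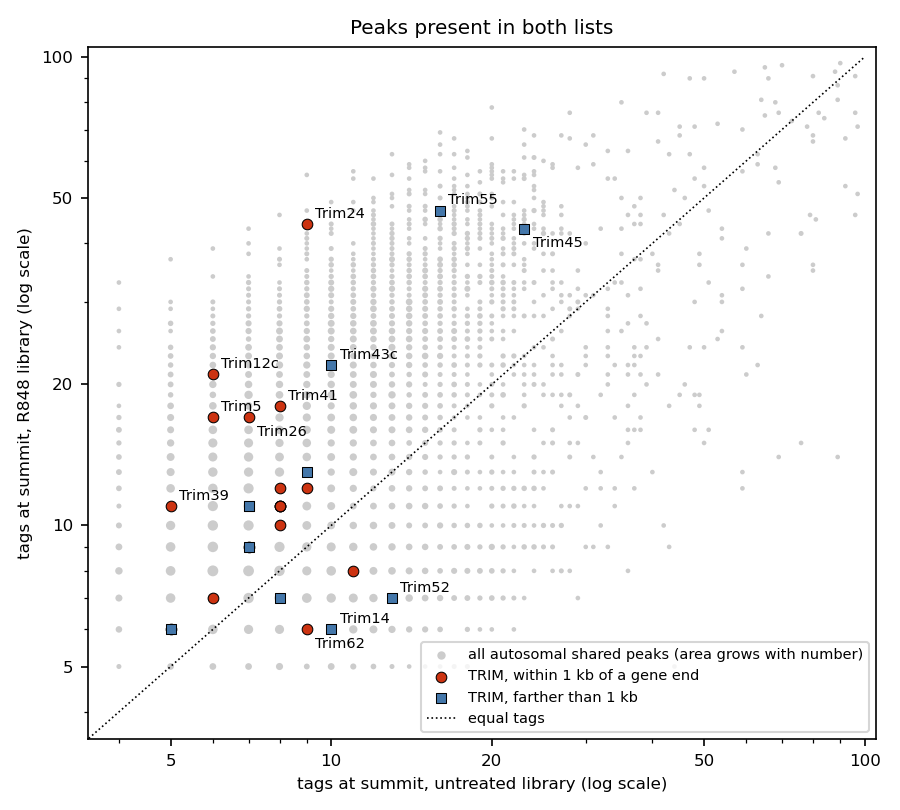
Tags at the summit in the untreated (horizontal) and R848 (vertical) library, both on log scales, for peaks present in both lists, up to 100 tags. Grey dots are all autosomal shared peaks, red circles are TRIM peaks within 1 kb of a gene end and blue squares TRIM peaks farther away; Trim24 (9 and 44 tags) lies farthest above the line of equal tags among TRIM peaks and Trim52 (13 and 7) farthest below.

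Members that act in innate sensing and inflammatory signalling numbered 17. They had 29 untreated and 23 R848 peaks, of which 19 and 13 were found in 1 list alone, and R848-only peaks were assigned to 8 of the 17, where 48.7% of all autosomal genes had one. The untreated-only share was 65.5% (47.3 to 80.1), against 78.3% of all assigned untreated peaks, and the R848-only share was 56.5% (36.8 to 74.4), against 67.2% of all R848 peaks. Trim14, an adaptor of MAVS and cGAS signalling that lacks a RING domain, had 3 peaks in each list, and its R848-only peak 2407 bp inside the gene (chromosome 4, 46507310 to 46507627) held 12 tags. An untreated peak of 5 tags lay 401 bp from it, and with a gap of up to 500 bp counted as shared Trim14 had 1 R848-only peak and no untreated-only peak. Trim27, a ligase that acts on IKK kinases, had no untreated-only peak and 2 R848-only peaks of 9 and 7 tags beside its shared start-site peak of 8 and 11 tags. Trim62, which acts on the adaptor CARD9, had 2 R848-only peaks and 1 untreated-only peak, and Trim8, an activator of TAK1, had 1 of each.

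The cytosolic antibody receptor gene Trim21 had a single peak, over its start site and its ISRE matches, with 7 tags untreated and 9 after R848. Trim56, which acts on cGAS and STING, had 2 untreated-only peaks and 1 R848-only peak of 9 tags. Trim32, a STING ligase, had 6 untreated-only peaks and 1 R848-only peak, and all of these went to other genes when a peak went first to the gene that holds its summit. Trim13, an endoplasmic reticulum ligase, had 3 untreated-only peaks, with 6 to 10 tags, and none after R848. Trim6, which makes free ubiquitin chains, had 2 and none, Trim40 had 1 and none, and Trim59 had 1 untreated-only peak and a shared start-site peak of 6 and 7 tags. Trim23, Trim31 and Trim65, the last a ligase of the RNA sensor MDA5, had none. The Trim23 start-site window did hold a peak in both lists, of 12 and 21 tags, whose summit was nearer to another gene.

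By number of R848-only peaks, Trim52 came before Trim25, Trim7, Trim33 and Trim42, which had 3 each. Trim52 had 4, of 6 to 12 tags, all between 44733 and 94007 bp from the gene, and 6 untreated-only peaks; with gene ends within 20 kb it had none of the 4. Trim7, whose protein binds glycogenin, had R848-only peaks of 10 to 14 tags and 1 untreated-only peak of 4 tags. Trim33, the TIF1-gamma regulator of SMAD signalling, had R848-only peaks of 6 to 7 tags beside 7 untreated-only peaks of 4 to 10 tags, the largest number in the family. Its shared start-site peak held 8 and 11 tags. Trim42 had 3 untreated-only peaks beside its R848-only ones, and Trim29, a member linked to the response to DNA damage, had 2 R848-only peaks and 1 untreated-only peak. The strongest R848-only TRIM peak belonged to Trim50, with 16 tags and a fold of 7.21 (chromosome 5, 135357594 to 135357904), 5850 bp inside the gene and 5925 bp from Fkbp6.

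Many untreated-only peaks were also assigned to Trim43b (6, with no R848 peak), Trim2, a ligase of neuronal neurofilaments (4), and Trim5 (4, all inside the gene). A q above 0.05 was found for 43 of the 115 TRIM peaks before and 25 of the 68 after treatment. It was found for 36.5% and 48.2% of all peaks in the lists, which include sex-chromosome and unassigned peaks. The shares over assigned autosomal peaks alone were not counted.

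The groups by function or place are small, and their counts stand beside the 78.3% of untreated and 67.2% of R848 peaks that were found in 1 list alone over all genes. The chromosome 7 list of 13 members had 22 untreated and 8 R848 peaks. Of the 8, 7 lay within 1 kb of a gene end, 5 were shared and 3 were R848-only. The 4 TIF1-type regulators had 13 untreated and 5 R848 peaks, and R848-only peaks at Trim33 alone. The 4 NHL-repeat genes had 14 and 4, with 13 untreated-only (92.9%, 68.5 to 98.7) and 3 R848-only (75%, 30.1 to 95.4). The 7 microtubule-binding members had 10 and 5, all from Trim9, Trim36 and Trim55, and the 4 muscle members had 5 and 2. The 6 genes linked to the MHC had 3 and 2, and both R848 peaks, at Trim26 and Trim39, were shared. The 10 members known from germ line and embryo had 20 and 8, of which 18 (90%, 69.9 to 97.2) and 6 (75%, 40.9 to 92.9) were found in 1 list alone, and the intervals of both lists hold the shares of all genes.

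The proteins that TRIM ligases act with were described in the same way, from a list of 24 sensors, adaptors, kinases and ubiquitin-conjugating enzymes. They had 32 untreated and 42 R848 peaks, of which 19 (59.4%, 42.3 to 74.5) and 30 (71.4%, 56.4 to 82.8) were found in 1 list alone, against 78.3% and 67.2% over all genes. R848-only peaks were assigned to 15 of these 24 genes, against 25 of 67 TRIM genes and the 48.7% of all genes. Ddx58, which encodes the RNA sensor RIG-I, had 3 R848-only peaks and 1 untreated-only peak, its regulator Dhx58 had 2 and 0, and the inflammasome gene Nlrp3 3 and 0. Tbk1, the kinase of IRF3, had 4 and 3, and Traf6, a ligase that makes ubiquitin chains downstream of Toll-like receptors, 2 and 0. More untreated-only peaks were found at Map3k7, which encodes TAK1 (3 R848-only and 6 untreated-only), Rnf135 (1 and 3) and Ube2n (0 and 1). Tab2 and Traf3 had 2 of each. No peak was assigned to Ifih1, Irf3, Isg15, Myd88 or Rnf125. Of the R848 peaks of these genes, 23 of 42 lay within 1 kb of a gene end (54.8%, 39.9 to 68.8), against 27.6% of all assigned R848 peaks and 21 of 68 for the TRIM genes (30.9%); whether the groups differ was not tested.

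**Figure D4:**
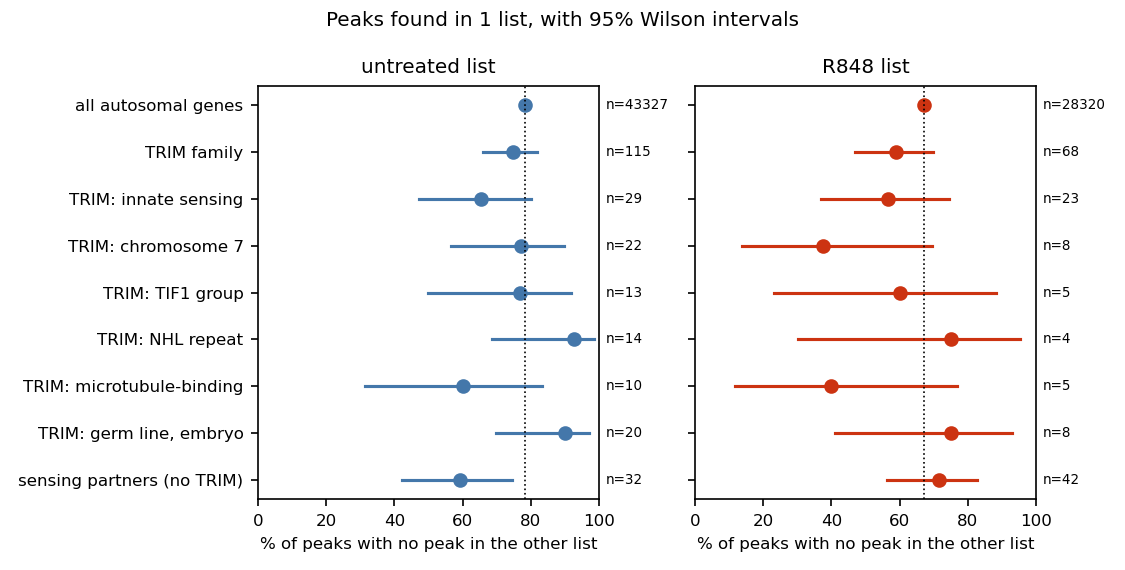
Percent of peaks found in 1 list alone (horizontal axis), for the untreated list (left) and the R848 list (right), in all autosomal genes, the TRIM family, TRIM groups and the sensing partners. Points are shares of n peaks, bars are 95% Wilson intervals over peaks (counting error only), and the dotted line is the share of all autosomal genes, 78.3% and 67.2%; the TRIM family stands at 74.8% and 58.8%.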

How the data were processed

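Peak lists of 1 untreated and 1 R848 library were analysed. Per the submitters' processing notes, reads were handled with bcl2fastq 2.19, Bowtie2 2.2.6 and MACS2 2.2.7.1 on mm10; for settings, read filters and read totals, nothing is given in the sources used here. Each fold is the authors' ratio of summit signal to background, and the peak caller's −log10 p and its −log10 q were deposited beside it, per library. The deposited score was not used. The deposited summit offset located each peak.

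Intervals cover counting error only, since PCR reads without molecular identifiers are not independent molecules. Tags and background were solved together from fold = (tags + 1)/(background + 1) and the Poisson tail, within 0.1% of the −log10 p, for 99.9% of untreated and 99.8% of R848 peaks. Peaks were shared at an overlap of at least 1 bp. Gene ends came from the RefSeq table, which gives no exons; ties went to the first symbol. Python 3.11.15, numpy 2.4.6, pandas 2.3.3, scipy 1.17.1, biopython 1.88 and matplotlib 3.10.9 were used, and the steps were tested on simulated data.

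Named genes were those with R848-only peaks within 1 kb, the 8 with most peaks of 1 list alone, the 8 strongest shared, the strongest of each list and the sensing members; others were named after their values were seen. The members and lists were chosen with earlier results of these data known.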

Additional observations from a re-analysis of the deposited data

How the results depend on the processing

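No paired analysis was possible because each group holds 1 library. At a −log10 q of at least 5, TRIM genes kept 6 untreated and 14 R848 peaks, 42.9% of these R848 peaks lay within 1 kb of a gene end, 85.7% were R848-only, 12 genes had an R848-only and 4 an untreated-only peak, and promoter windows with a peak numbered 2 in both lists, 5 in the R848 list alone and 1 in the untreated list alone. Most R848-only peaks at the cut of 5 were shared ones in the full lists, whose untreated partner fell below the cut. They lay at Trim5, Trim12c, Trim24, Trim26, Trim35, Trim36, Trim41 and Trim43c. Those of Trim7, Trim14, Trim50 and Trim52 were R848-only in the full lists too. Shares of all autosomal peaks and genes at the changed settings were not counted, except those given above for lists of equal length and for promoter windows. At a −log10 q of at least 1.3, 72 untreated and 43 R848 peaks and 4 windows with an R848 peak alone were left. With gene ends within 20 kb, 28.7% of untreated peaks lay within 1 kb and 35% were overlapped by an R848 peak. With every gene within 50 kb, there were 237 untreated and 172 R848 peaks, 11.0% and 13.4% of them within 1 kb. At that setting 49 genes had an R848-only and 60 an untreated-only peak, and 1 peak could count for several genes. With lists of equal length, 47 untreated peaks were left, 42.6% of them overlapped, 70.6% of R848 peaks were R848-only, 19 genes had an untreated-only peak, and windows numbered 10 in both lists, 8 in R848 alone and 1 in untreated alone. Without near-identical copies, an alternative chosen after seeing the data, 1 window held an R848 peak alone. The other 56 family values stayed within their interval or within 1.5 times, as did 456 of 618 counts for named genes. The cause was not tested. A median TRIM peak held 6 untreated or 9 R848 tags, so single peaks carry little precision.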

Other observations

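Some TRIM peaks lay almost as near to another gene. The strongest R848-only peak of Trim7 outside the gene (12 tags, 5635 bp from Trim7) was 8418 bp from Irgm1, which encodes an interferon-induced GTPase, and the untreated peak 44 bp away from it held 4 tags. The shared R848 peak at the start of Trim17 lay 89 bp from Trim17 and 103 bp from the histone gene H2aw, with 10 tags. The shared untreated peak of Trim28 lay 136 bp from Trim28 and 301 bp from Gm31649. These values were picked after they were seen, and which gene such a peak serves was not tested.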
